A study of Mus musculus with 8 samples.

Results

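Macrophages that carried STING without its C-terminal tail (dCTT) were compared with the same Sting-/- mouse macrophages carrying no transgene, 4 h after the STING ligand CMA. The libraries of the 2 dCTT samples and the 2 samples labelled as having no transgene were used, 4 of the 8 in the series. All genes that reached 1 RPKM in 2 or more of these 4 libraries were taken, which gave 12896 of the 53715 genes in the deposited table. RPKM divides the reads of a gene by its length in kilobases and by the size of the library.

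The cells were Sting-/- mouse macrophages that stably carried a transgene. The dCTT cells carried STING that lacks the tail, the mSTING cells of the same series carried mouse STING with its tail, and the cells without a transgene bear the vector name MSCV2.2 in their titles. All of them, the cells without a transgene included, received 500 µg/mL CMA (10-carboxymethyl-9-acridanone) for 4 h, so no unstimulated cells stand beside them. Polyadenylated RNA was sequenced as single-end reads. The labels do not say whether the cells of a group were a pool or 1 clone, nor whether its 2 libraries were made from different cultures; the p-values then reflect a spread between libraries that may be technical alone.

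STING is a membrane protein of the endoplasmic reticulum that is activated by cyclic dinucleotides made in response to cytosolic DNA, and CMA is a small molecule that activates mouse STING. Activated STING moves to the Golgi, where its cytosolic tail binds the kinase TBK1 and presents the transcription factor IRF3 to it. IRF3 and NF-κB then switch on interferon-β, and secreted interferon acts back on the cells through the receptor IFNAR and the kinases JAK1 and TYK2, which switch on the interferon-stimulated genes. Lipidation of LC3 and traffic to lysosomes are outcomes of STING activation known not to need the tail.

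The read-outs of this pathway carry short binding sites in front of their genes. Such stretches are printed for Ifnb1, the first gene of the response, and for Cxcl10, Rsad2 and Ifit1. These 3 are interferon-stimulated genes that did not reach 1 RPKM in 2 of the 4 libraries compared. The 250 bases before the RefSeq start of each gene are given 5′ to 3′ on the gene's strand (GRCm38.p6). Capitals mark the interferon-stimulated response element, searched as GAAA, any 2 bases and GAAA again, and the κB site of NF-κB, both on either strand.
Ifnb1, chr4:88522795-88523044, minus strand: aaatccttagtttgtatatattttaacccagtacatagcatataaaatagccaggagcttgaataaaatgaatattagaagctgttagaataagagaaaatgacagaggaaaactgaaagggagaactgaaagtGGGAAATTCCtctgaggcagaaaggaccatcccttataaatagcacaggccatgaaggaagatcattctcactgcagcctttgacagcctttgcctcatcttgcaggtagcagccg
Cxcl10, chr5:92348890-92349139, minus strand: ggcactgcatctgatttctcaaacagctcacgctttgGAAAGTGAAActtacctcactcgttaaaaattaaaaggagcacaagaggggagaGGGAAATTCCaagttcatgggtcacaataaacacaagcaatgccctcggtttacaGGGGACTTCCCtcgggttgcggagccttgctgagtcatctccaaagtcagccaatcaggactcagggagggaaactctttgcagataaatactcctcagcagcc
Rsad2, chr12:26456453-26456702, minus strand: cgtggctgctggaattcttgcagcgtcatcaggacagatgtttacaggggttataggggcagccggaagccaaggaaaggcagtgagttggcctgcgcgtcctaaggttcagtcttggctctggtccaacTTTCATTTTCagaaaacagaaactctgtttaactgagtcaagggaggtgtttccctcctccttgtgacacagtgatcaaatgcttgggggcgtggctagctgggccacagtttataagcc
Ifit1, chr19:34640639-34640888, plus strand: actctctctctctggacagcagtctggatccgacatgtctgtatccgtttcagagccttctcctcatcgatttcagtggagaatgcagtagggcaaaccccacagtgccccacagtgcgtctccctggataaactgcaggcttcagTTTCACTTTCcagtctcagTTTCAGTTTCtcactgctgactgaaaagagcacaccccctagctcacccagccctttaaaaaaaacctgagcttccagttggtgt
The Ifnb1 stretch held 1 κB match and no match to the response element in the 1 form searched. Other sequences that IRF3 may bind were not searched. The Cxcl10 stretch held 1 response element and 3 κB matches, of which 2 overlap by all but 1 base. Rsad2 held 1 response element and Ifit1 held 2. The response element occurred in 22 of the 49 interferon-stimulated genes that had a promoter entry (44.9%), and in 3.46% of all 27025 genes with an entry. The κB site occurred in 14 of 35 genes of the NF-κB list (40%) and in 8.23% of all genes with an entry. A match is a run of letters, not a measured binding site.

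STING itself differed most. Tmem173, which encodes STING, had 22.7 and 15.0 RPKM in the dCTT libraries, 10.6 and 22.1 RPKM in the mSTING libraries, and 3.23 and 2.42 RPKM in the libraries without a transgene. The dCTT libraries lay well above those without a transgene, with no overlap, and spanned about the same levels as the mSTING libraries. The difference from no transgene was 2.36 ± 0.27 on the log2(RPKM + 1) scale (SE, n = 2 each), with a 95% interval of 1.63 to 3.08. It was the largest difference and the smallest p of all tested genes, yet its adjusted p was 1 in limma's moderated test (unadjusted p = 0.000575). With the replicate number as a block limma called it, at an adjusted p of 1.1e-05; the labels do not say that the numbers mark a shared batch. dCTT and mSTING differed by 0.25 ± 0.38 log2 at this gene, with an interval from -0.67 to 1.2. The reads at Tmem173 in Sting-/- cells without a transgene numbered 245 and 672. What they come from was not tested.

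**Figure D1:**
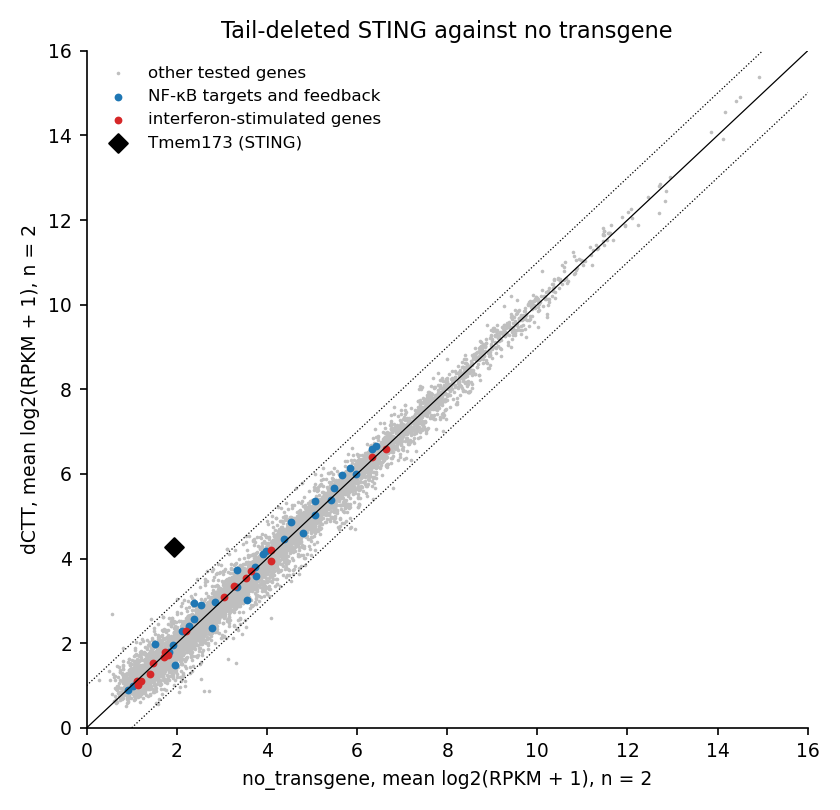
Mean log2(RPKM + 1) of the 2 dCTT libraries (vertical axis) against that of the 2 libraries without a transgene (horizontal axis) for the 12896 tested genes; the solid line marks equal levels and the dotted lines 1 log2 unit to either side. Tmem173 (black diamond) lies 2.36 above the line, while the interferon-stimulated genes (red) and the NF-κB genes (blue) lie along it.

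Across the other genes the dCTT cells and the cells without a transgene were close. None of the 12896 genes passed an adjusted p of 0.05 (0% called; limma, Benjamini-Hochberg), and 97 (0.752%) had an unadjusted p under 0.05. limma-voom on reads recovered from the RPKM steps also called 0 genes, and 38 had an unadjusted p under 0.05 there. By chance alone about 645 of the 12896 would fall under 0.05, so these low counts are no sign of equal levels. With the replicate number as a block, 925 did so in limma. Without the block the test did not call even Tmem173, so a count of 0 says little about small differences, and the intervals say more. For 9824 genes (76.2%) the 95% interval of the log2 difference lay wholly between -1 and 1. That is within a doubling or halving of RPKM + 1, which for low genes allows a wider fold of RPKM itself. With a pseudocount of 0.1 the number was 7966. The difference was under 0.5 in size for 12270 genes (95.1%) and over 1 for 34, of which 11 were higher and 23 lower in dCTT. The median difference was -0.01, and the 5th and 95th percentiles were -0.39 and 0.31.

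The depth of the 4 libraries, read from the steps of their RPKM values, was 55.7 M and 171 M reads for dCTT and 27.7 M and 101 M reads for no transgene. The libraries were closest to those of the same number. Across the tested genes the log2 levels correlated at 0.980 between the first dCTT library and the first without a transgene, and at 0.996 between the second ones. Within a group the correlation was 0.972 for dCTT and 0.943 for no transgene. The first library without a transgene, the shallowest of the 4, was far from both libraries numbered 2 (0.944 with the second dCTT library). The gap between dCTT and no transgene had a standard deviation across genes of 0.415 between the libraries numbered 1 and of 0.180 between those numbered 2. The correlation between the 2 gaps was 0.038 across the 12896 genes, which are not independent replicates. Whether depth bears on this was not tested. Without the first library that had no transgene the Tmem173 difference was 2.51, the median of the interferon-stimulated genes was -0.01, and limma again called 0 genes. Of the 12896 genes, 11785 reached 1 RPKM in all 4 libraries, 28 passed through the dCTT libraries alone and 25 through those without a transgene alone. The remaining genes of the table were at 0 in all 4 libraries (24427) or had reads but missed the filter (16392); the genes nearest the limit had a second-highest RPKM of 1.0000454 just inside it and 0.99997395 just outside.

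**Figure D2:**
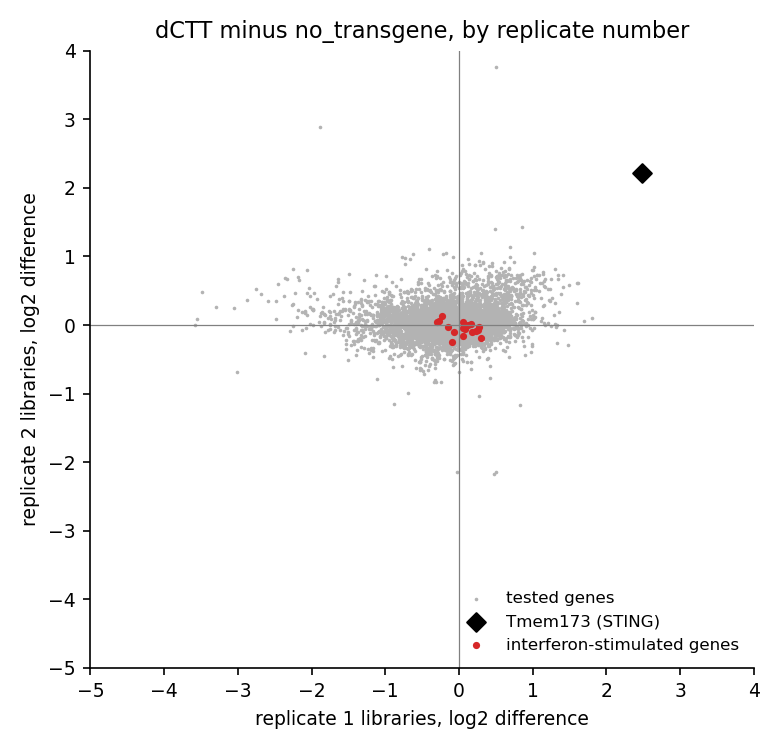
Log2 difference, dCTT minus no transgene, for the libraries numbered 2 (vertical axis) against that for the libraries numbered 1 (horizontal axis), 1 point per tested gene. Tmem173 was 2.49 and 2.22 higher in the sets numbered 1 and 2, the interferon-stimulated genes sit at the centre, and the cloud is wider along the horizontal axis.

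The cells carried macrophage transcripts. Of 10 macrophage markers, 7 reached the filter, among them Csf1r, the receptor for colony-stimulating factor 1, at 118 and 96.3 RPKM in dCTT and 121 and 105 RPKM without a transgene, and Cd68 at 304 and 382 RPKM in dCTT and 317 and 450 RPKM without a transgene. Mertk, Mrc1 and Marco stayed under 1 RPKM in all 4 libraries, and Marco was at 0 in the first library of each group. All 7 had a lower mean in dCTT (median difference -0.15), but the libraries overlapped for each of them. The summed level of the 10 markers was 892 and 839 RPKM in dCTT and 1144 and 965 RPKM without a transgene. Markers of T cells, B cells, neutrophils, dendritic cells, fibroblasts, epithelium, erythroid cells, mast cells and endothelium did not reach the filter; each list summed to at most 0.842 RPKM in dCTT and 1.03 RPKM without a transgene, the highest being T cells through the kinase gene Lck, with Cd3e and Cd8a at 0 in all 4 libraries. In bulk RNA, fewer cells of a type and less RNA per cell cannot be told apart.

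Interferon-stimulated genes stood at like levels with tail-deleted STING and with no transgene, most of them below the filter, and lower than with mSTING. Of 66 listed interferon-stimulated genes 65 were found in the table, and 48 of these did not reach the filter. Among the 17 that did, 10 had a higher and 7 a lower mean in dCTT, none passed the test, and the median difference was 0.01 beside -0.01 for all tested genes. In 15 of the 17 the 95% interval lay within 1 log2 unit, against 76.2% of all tested genes. Both dCTT libraries were lower for 1 of them (Parp12; 6.34% of all tested genes) and both were higher for none (7.72% of all tested genes). The same 17 genes had a median difference of 1.33 between mSTING and no transgene; the comparisons share the libraries without a transgene.

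The antiviral effectors show the pattern. Oas1a, an oligoadenylate synthetase that activates RNase L, had 7.6 and 7.32 RPKM in dCTT, 125 and 26.6 RPKM in mSTING, and 6.64 and 7.92 RPKM without a transgene. Bst2, which tethers budding viruses to the cell, had 80.0 and 86.2 RPKM in dCTT, 444 and 126 RPKM in mSTING, and 73.6 and 86.3 RPKM without a transgene. Ifi27l2a, an interferon-induced gene, had 11.5 and 17.7 RPKM in dCTT, 514 and 92.3 RPKM in mSTING, and 12.3 and 21.1 RPKM without a transgene. In each of these genes the dCTT libraries overlapped those without a transgene and both mSTING libraries were higher, with a gap of several fold between the 2 mSTING libraries. The differences between dCTT and no transgene were 0.04 ± 0.19 for Oas1a, 0.06 ± 0.20 for Bst2 and -0.16 ± 0.36 log2 for Ifi27l2a. Oas1a and its neighbours in the Oas family are similar in sequence, so reads may be shared among them.

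**Figure D3:**
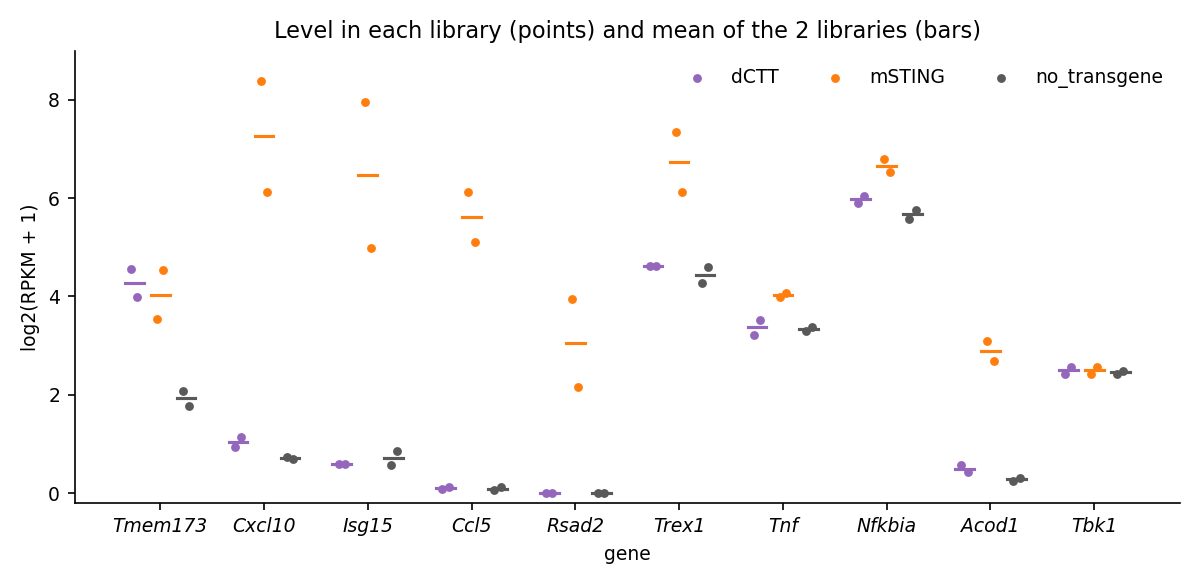
Log2(RPKM + 1) of 10 genes in each library (points) and the mean of the 2 libraries (bars) for dCTT, mSTING and no transgene. At Cxcl10, Isg15, Ccl5, Rsad2, Trex1 and Acod1 the dCTT points lie near those without a transgene and below both mSTING points, while at Tmem173 the dCTT and mSTING points lie together.

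The genes that missed the filter were those closest to silent. Rsad2, which encodes the antiviral enzyme viperin, was at 0 in both dCTT libraries, at 14.5 and 3.46 RPKM in mSTING, and at 0 in both libraries without a transgene. Ifit1, which binds viral RNA, was likewise at 0 in all 4, with 13.7 and 2.17 RPKM in mSTING. A count of 0 allows up to 3 reads, which for Rsad2 is 0.0124 and 0.00404 RPKM in the dCTT libraries and 0.0250 and 0.00684 RPKM in those without a transgene; this covers counting error alone. Interferon-β (Ifnb1) was at 0 in all 4 libraries and had 4 and 6 reads in the mSTING libraries, so it was not detectable at this depth in the dCTT cells or the cells without a transgene at 4 h. Isg15, the ubiquitin-like modifier, had 0.499 and 0.509 RPKM in dCTT, 247 and 30.5 RPKM in mSTING, and 0.477 and 0.810 RPKM without a transgene. Irf7, the transcription factor that amplifies interferon production, had 0.0999 and 0.148 RPKM in dCTT, 60.5 and 6.61 RPKM in mSTING, and 0.115 and 0.181 RPKM without a transgene. Its exons overlap those of Phrf1, and without a strand setting such reads cannot be assigned. For both genes the dCTT libraries overlapped those without a transgene.

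The chemokine Cxcl10, whose promoter stretch holds both kinds of site, had 0.909 and 1.19 RPKM in dCTT, 335 and 68.9 RPKM in mSTING, and 0.657 and 0.614 RPKM without a transgene. Here both dCTT libraries were above both libraries without a transgene, on 114 and 459 reads against 41 and 140 reads, though the gene missed the filter. Fitted with no filter on low values, its difference was 0.32 ± 0.15 log2 (limma adjusted p of 1). Reads of Cxcl10 may include some of Art3, which shares exonic sequence with it. Ccl5, which attracts T cells, had 0.0561 and 0.0911 RPKM in dCTT, 69.3 and 33.7 RPKM in mSTING, and 0.0376 and 0.0926 RPKM without a transgene. Acod1, which makes itaconate, had 0.486 and 0.338 RPKM in dCTT, 7.48 and 5.47 RPKM in mSTING, and 0.192 and 0.237 RPKM without a transgene. Both dCTT values of Acod1 again lay above those without a transgene, also below the filter. Among the 48 interferon-stimulated genes below the filter, both dCTT libraries were higher for 3 and lower for 5. The summed level of these 48 was 10.9 and 9.81 RPKM in dCTT and 12.4 and 9.79 RPKM without a transgene. With no filter, 5001 of 29288 genes had libraries without overlap in either direction.

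The difference between dCTT and mSTING was tested over the 13475 genes that reached 1 RPKM in 2 or more of the 8 libraries. No gene passed an adjusted p of 0.05 in limma, and 336 (2.49%) had an unadjusted p under 0.05. The 17 interferon-stimulated genes that reached the filter in the dCTT libraries and those without a transgene all had a lower mean in dCTT than in mSTING. That filter did not use the mSTING libraries, but the list was written with earlier results of these data known. The counts therefore describe the list and are no independent test. Of the 12896 genes that passed the same filter, 42.5% were lower. The median difference of the 17 was -1.32 beside 0.04 over the 12896. Both dCTT libraries were lower than both mSTING libraries for 16 of the 17, the exception being Ly6e, against 11.7% of the 12896. Cxcl10, Isg15, Ccl5 and Acod1 entered this fit through libraries of the other groups, where they were high, so their values describe the size of the gap and support nothing further. They were -6.23 ± 0.68 log2 for Cxcl10, -5.88 ± 0.88 for Isg15, -5.52 ± 0.54 for Ccl5 and -2.39 ± 0.20 for Acod1.

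The receiving side of the interferon pathway was present at like levels. Of 20 listed interferons, receptors and signalling genes 8 were tested, none passed, and their median difference was -0.04. Ifnar1 and Ifnar2, the chains of the type I interferon receptor, differed by -0.03 ± 0.20 and -0.05 ± 0.18 log2. The receptor kinases differed by 0.12 ± 0.24 (Tyk2) and -0.15 ± 0.29 (Jak1). The interval of all 8 genes lay within 1 log2 unit. Socs1, a feedback inhibitor that interferon induces, was under the filter, with 0.241 and 0.387 RPKM in dCTT, 9.44 and 2.06 RPKM in mSTING, and 0.186 and 0.387 RPKM without a transgene.

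So were most of the genes that act beside STING. Of 28 genes for STING, its kinases and DNA sensing, 27 were tested, Tmem173 included, with a median difference of 0.04. In dCTT 14 had a higher and 13 a lower mean, and 24 intervals lay within 1 log2 unit. Both dCTT libraries were higher for 2, Tmem173 among them, and lower for 2, against 7.72% and 6.34% of all tested genes. The lowest was Tab2, at -0.45 ± 0.33 with an interval from -1.33 to 0.43. Tbk1, the kinase that the tail recruits, had 4.39 and 4.95 RPKM in dCTT and 4.39 and 4.56 RPKM without a transgene, a difference of 0.05 ± 0.17 log2. Irf3, its substrate, differed by 0.10 ± 0.20, Ikbke, which encodes the related kinase IKKε, by 0.16 ± 0.20, and Cgas, which makes the cyclic dinucleotide, by -0.18 ± 0.23. The intervals of Tbk1, Irf3, Ikbke and Cgas each spanned 0 and stayed within 1 log2 unit. Trex1, the cytosolic exonuclease that degrades DNA and is itself induced by interferon, had 23.5 and 23.5 RPKM in dCTT, 163 and 68.3 RPKM in mSTING, and 18.4 and 23.4 RPKM without a transgene. Its difference between dCTT and no transgene was 0.17 ± 0.21.

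NF-κB targets and feedback genes leaned slightly higher with tail-deleted STING without passing the test. Of 43 listed genes 33 were tested, 22 with a higher and 11 with a lower mean in dCTT, against 47.6% higher over all tested genes, and the median difference was 0.13. It was 0.19 between the libraries numbered 1 and 0.06 between those numbered 2. Both dCTT libraries were higher for 5 of the 33 (Relb, Nfkbie, Nfkb2, Nfkbia and Icam1) and lower for 1 (Tnfaip3, which encodes the inhibitor A20), against 7.72% higher and 6.34% lower of all tested genes. Relb, a subunit of the alternative NF-κB pathway, had 6.95 and 6.53 RPKM in dCTT, 10.3 and 7.6 RPKM in mSTING, and 3.42 and 5.17 RPKM without a transgene. Nfkb2, its partner, had 13.3 and 11.3 RPKM in dCTT, 25 and 13.4 RPKM in mSTING, and 8.22 and 9.88 RPKM without a transgene. Nfkbia, the inhibitor IκBα that NF-κB induces, had 58.9 and 64.9 RPKM in dCTT, 110 and 91.6 RPKM in mSTING, and 46.7 and 53.4 RPKM without a transgene. In these genes the dCTT libraries lay between the other groups. The differences from no transgene were 0.57 ± 0.23, 0.41 ± 0.20 and 0.30 ± 0.20 log2 for Relb, Nfkb2 and Nfkbia, with an adjusted p of 1 each in limma and intervals that reach to -0.05, -0.13 and -0.23. The intervals of 19 of the 33 lay within 1 log2 unit, and those of the other 14 leave room for a larger difference. The genes for the subunits Rela, Nfkb1 and Rel differed by 0.19 ± 0.24, 0.08 ± 0.18 and -0.04 ± 0.19.

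Inflammatory cytokine genes were mostly under the filter in these cells, with 8 of 25 tested, 4 with a higher and 4 with a lower mean in dCTT, and a median difference of 0.00. Tnf had 8.26 and 10.5 RPKM in dCTT, 14.9 and 15.9 RPKM in mSTING, and 8.87 and 9.45 RPKM without a transgene, a difference between dCTT and no transgene of 0.03 ± 0.20 log2. The dCTT libraries lay on either side of those without a transgene. Il6 had at most 0.0148 RPKM in dCTT and 0.0446 RPKM without a transgene. Of 22 chemokine genes 8 were tested, and all 8 had a lower mean in dCTT (median -0.23; -0.36 between the libraries numbered 1 and -0.05 between those numbered 2), with 5 of the 8 intervals within 1 log2 unit. Pf4 had 190 and 198 RPKM in dCTT and 215 and 228 RPKM without a transgene, and Pf4 and Ccl6 were the 2 whose dCTT libraries were both lower, as for 6.34% of all tested genes. Ccl2, which attracts monocytes, had 8.97 and 41.1 RPKM in dCTT, 61.7 and 75.6 RPKM in mSTING, and 12.5 and 41.6 RPKM without a transgene. Its gap between libraries of 1 group was far wider than that between dCTT and no transgene.

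Genes of the outcomes that are known not to need the tail showed no difference past the test. Of 40 autophagy and LC3 lipidation genes 33 were tested, with a median difference of -0.01 and 30 intervals within 1 log2 unit. Map1lc3b, which encodes LC3B, had 14.8 and 18.8 RPKM in dCTT and 15.6 and 21.5 RPKM without a transgene (-0.13 ± 0.25 log2). Sqstm1, the autophagy receptor p62, had 53.3 and 89.9 RPKM in dCTT and 34.8 and 91.1 RPKM without a transgene, and its interval from -1.17 to 1.74 was too wide to place it. The 40 tested lysosome and TFEB target genes had a median of -0.03; both dCTT libraries were lower for 6, among them Ctsl, which encodes a lysosomal protease, and higher for 1, the regulator Tfeb, against 6.34% lower and 7.72% higher of all tested genes. The 37 genes of the unfolded protein and integrated stress responses had a median of 0.02, and none had libraries without overlap. The 22 cell death genes (0.01), the 17 p53 targets (0.04) and the 29 immediate early genes (0.05) were as close to 0. RNA levels do not measure LC3 lipidation or protein traffic themselves.

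**Figure D4:**
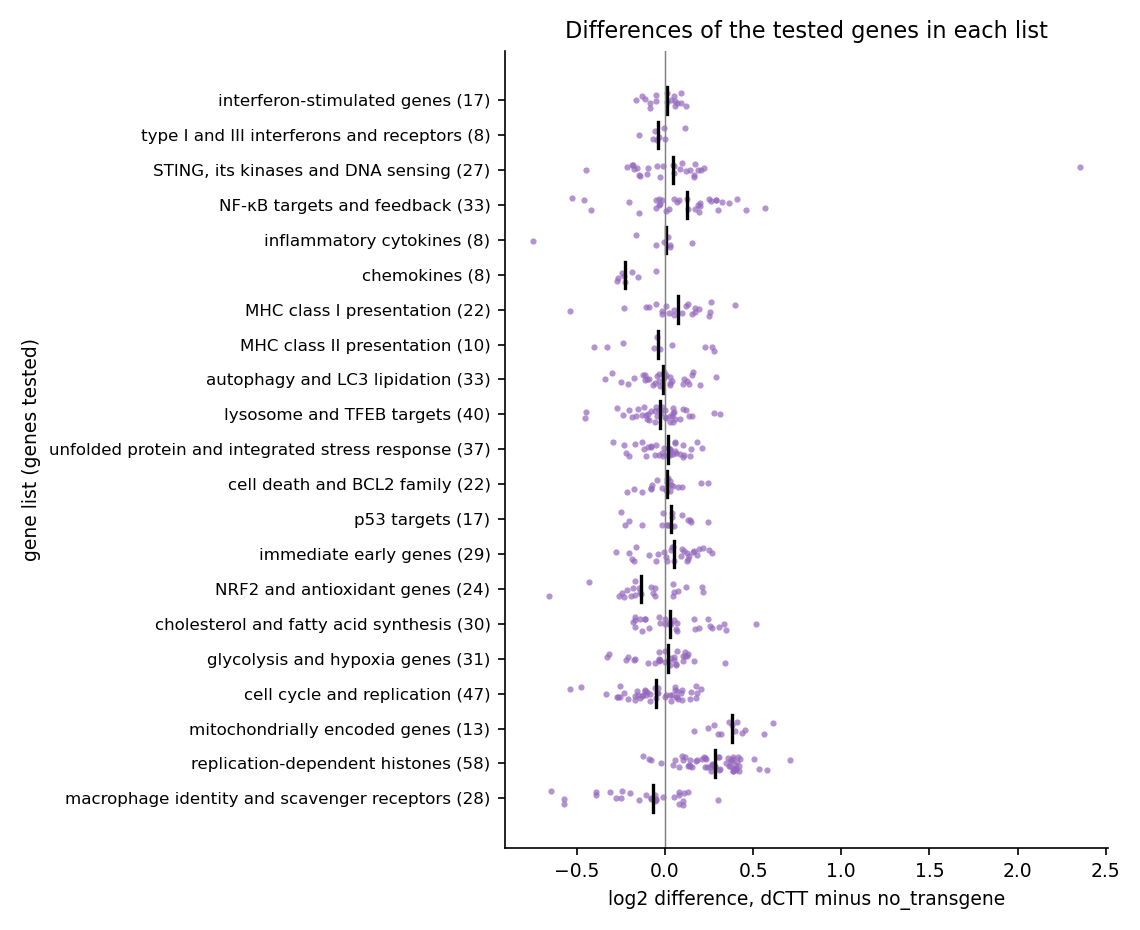
Log2 difference, dCTT minus no transgene, of every tested gene of 21 lists (points, number tested in brackets) with the list's median (black bars). The medians lie between -0.23 (chemokines) and 0.38 (mitochondrially encoded genes), and the single point at 2.36 is Tmem173.

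Antigen presentation also stayed close in its medians. The 22 tested genes of MHC class I presentation had a median difference of 0.08, with 15 higher and 7 lower in dCTT. They ranged from -0.54 (B2m) to 0.40 (H2-Q4), and 16 intervals lay within 1 log2 unit. H2-Q2, of the same H2-Q family as H2-Q4, was not in this list and differed more (0.94 ± 0.37 log2). The 10 genes of MHC class II presentation had a median of -0.04, from -0.40 (H2-Aa) to 0.28 (H2-DMa), with 7 intervals within 1 log2 unit. H2-Q4, a non-classical class I gene, had 6.34 and 9.0 RPKM in dCTT, 19.8 and 12.1 RPKM in mSTING, and 4.57 and 6.60 RPKM without a transgene, a difference from no transgene of 0.40 ± 0.27 log2. Its libraries overlapped. Near-identical genes of the H2-Q family may share reads.

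The lists with the highest medians were not part of the STING pathway. All 13 mitochondrially encoded messenger RNAs had a higher mean in dCTT. Their median was 0.38 (0.15 between the libraries numbered 1 and 0.55 between those numbered 2). Both dCTT libraries were higher for 5 of them, against 7.72% of all tested genes. Among them mt-Co3, a subunit of cytochrome c oxidase, had 189 and 206 RPKM in dCTT and 119 and 149 RPKM without a transgene, a difference of 0.56 ± 0.22. Of 58 tested replication-dependent histone genes 54 had a higher mean in dCTT. Their median was 0.28 (0.49 and 0.13 in the sets numbered 1 and 2). Both dCTT libraries were higher for 22, against 7.72% over all tested genes. In mSTING 56 of the 58 also had a higher mean than in the same libraries without a transgene (median 0.34). Of the 13 mitochondrially encoded messenger RNAs 7 had a higher mean in mSTING (median 0.08). Hist1h2aa had 21.4 and 19.8 RPKM in dCTT and 11.8 and 11.8 RPKM without a transgene, and it shares exonic sequence with Gm44344. None of these passed the test (limma adjusted p of 1 each). Histone genes of this class are near-identical copies, so reads may be shared among them, and most of their messages lack a poly(A) tail. The 47 cell cycle and replication genes, by contrast, had a median of -0.05.

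Of the metabolic and identity genes none passed the test. The 30 tested genes of cholesterol and fatty acid synthesis had a median of 0.03 and the 31 of glycolysis and hypoxia 0.02, while the 24 NRF2 and antioxidant genes leaned slightly lower, with a median of -0.14 (-0.14 and -0.07 in the sets numbered 1 and 2), 7 higher and 17 lower in dCTT. The 28 tested genes of macrophage identity had a median of -0.07, with 9 higher and 19 lower in dCTT. Cd36, a scavenger receptor for oxidized lipoproteins, had 1.04 and 1.39 RPKM in dCTT and 2.69 and 1.93 RPKM without a transgene, a difference of -0.57 ± 0.21 (limma adjusted p of 1). Both dCTT libraries were lower.

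Besides Tmem173, the largest differences among named genes whose libraries did not overlap were modest or rested on 1 library. On the higher side stood H2-Q2, with 1.90 and 4.73 RPKM in dCTT and 1.07 and 1.17 RPKM without a transgene (0.94 ± 0.37 log2), the small nucleolar RNA Snora78, with 11.5 and 12.5 RPKM in dCTT and 6.76 and 5.17 RPKM without a transgene (0.91 ± 0.21), and Hist1h2aa. Small RNAs filled 8 of the 12 highest places, several of them inside the exons of other genes, as Mir6970 is in Skiv2l. Among protein-coding genes, picked out after their values were seen, mt-Nd5 (0.61 ± 0.29), Relb and Srebf1 (0.51 ± 0.34), the regulator of fatty acid synthesis, were among the highest. Srebf1 had 21.5 and 21.9 RPKM in dCTT and 10.7 and 20.5 RPKM without a transgene, so its difference rested on the first library without a transgene and was 0.07 without that library. On the lower side Cd48, a ligand for the receptor 2B4, had 0.680 and 1.31 RPKM in dCTT and 7.22 and 1.47 RPKM without a transgene (-1.19 ± 0.62). Ndufb3, a subunit of respiratory complex I, had 35.1 and 41.6 RPKM in dCTT and 95.2 and 43.6 RPKM without a transgene (-0.74 ± 0.42). In both genes the first library without a transgene was the high one. In the libraries numbered 2 Cd48 differed by -0.09 and Ndufb3 by -0.07. Rnase4, a secreted ribonuclease that shares exonic sequence with Ang, was lower in both sets, with 5.46 and 4.91 RPKM in dCTT, 0.873 and 2.72 RPKM in mSTING, and 8.31 and 7.57 RPKM without a transgene (-0.53 ± 0.18). S100a4, a calcium-binding protein, had 581 and 616 RPKM in dCTT, 87.5 and 822 RPKM in mSTING, and 966 and 772 RPKM without a transgene (-0.53 ± 0.21). None of the genes named here passed the test.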

How the data were processed

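The authors deposited RPKM for 53715 genes, of which 53620 matched a GENCODE symbol. Cutadapt 1.16, HISAT2 2.1.0 and the build GRCm38 (mm10) come from the submitters' processing notes. The tool that counted reads, its annotation and its strand setting were not given in the sources used here. Reads of overlapping genes (Cxcl10, Irf7, Irf3, Cgas, Nfkb2, Srebf1, Sqstm1, the neighbouring mt genes) and of near-identical families are therefore uncertain.

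RPKM times exon length fell within 0.05 of whole multiples of 1 step per library for 95.0% to 95.6% of nonzero values, which gave the depths. limma 3.58.1 in R 4.3.3 was fitted to log2(RPKM + 1), with an intensity trend and two-sided tests adjusted by Benjamini-Hochberg over all 12896 genes; differences on this scale understate those of low genes. dCTT and mSTING were compared in a fit of all 8 libraries. The fit was tested on simulated data in which each library had its own independent noise. Deviations shared by same-numbered libraries were not simulated, so that test does not show how the fit behaves with them. Promoters are from RefSeq (32851 entries).

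The comparison and all lists were chosen with earlier results of these data known. Genes were named by rule: the 12 largest differences either way among symbols whose RPKM averaged 2 or more and whose libraries did not overlap, up to 4 members of each list by the smallest p, and a fixed set. Others were picked after their values were seen, and a few are not reported here. Alternatives covered the pseudocount, filter, scaling, spread, replicate block, gene type, voom and leaving out each library.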

Additional observations from a re-analysis of the deposited data

How the results depend on the processing

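No gene was called between dCTT and no transgene in limma under any alternative but the replicate block. Titles of dCTT and no_transgene share the numbers 1 and 2, and same-numbered libraries deviated together (r = 0.770 across 12896 genes). Over the genes of the fit of all 8 libraries, r with mSTING was 0.03 for dCTT and 0.04 for no transgene. With the remaining group of the series it was 0.40 and 0.43. There are only 2 pairs, and the labels do not say whether the numbers pair the samples. With the replicate block 3 genes were called: Tmem173 (2.36, adjusted p = 1.1e-05, against 0.677 to 1 under the other alternatives), Ighj4 (-1.02, adjusted p = 0.0358) and Gm48159 (1.14, adjusted p = 0.046), with 925 at an unadjusted p under 0.05; with the block and the spread from all 8 libraries 0 were called. The block changed no call between dCTT and mSTING. Of the 12896 genes, 12458 had an interval within 1 log2 unit with the block, against 9824 in the main fit. The number was 10917 with the block and the spread from all 8 libraries, and 7966 with a pseudocount of 0.1. Genes with an interval within 1 log2 unit numbered 24629 of 29288 with no filter on low values, 5757 of 7729 at a mean RPKM of at least 5, and 2132 to 9383 when a library was left out. Genes without overlap numbered 5001 with no filter, 1066 at a mean RPKM of at least 5, 1127 among protein-coding genes alone, and 5817 to 9669 when a library was left out, where 1 library against 2 overlaps less by construction. Tmem173 ranged from 2.07 to 2.78 and the median of the interferon-stimulated genes from -0.04 to 0.05. Between dCTT and mSTING 3 genes were called with a pseudocount of 0.1, 14 with no filter, 6 among protein-coding genes alone, and 0 to 10 when a library was left out, the 10 being without mSTING replicate 2; the cause was not tested. With 1 library left in a group, its spread was assumed to be like that of the others. Of 2046 values of 124 named genes under these alternatives, 31 changed sign and moved by more than the SE of the main fit. Moves that kept the sign were not counted, whatever their size, and none of these genes was called in the main fit. With replicate 2 libraries alone, no count of genes without overlap was made. Having 2 libraries a group and a floor of 3 reads limits what can be seen of low genes.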

Other observations

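Processed pseudogenes, copies of messenger RNAs put back into the genome, made up 2029 of the 12896 tested genes and 71 of the 97 with an unadjusted p under 0.05 in limma, none of which passed adjustment; protein-coding genes gave 5 of the 97 out of 9084. Both dCTT libraries were higher for 17.1% of the processed pseudogenes and lower for 3.40%, against 5.43% and 6.98% of protein-coding genes. The medians of the processed pseudogenes were -0.01 between the libraries numbered 1 and 0.09 between those numbered 2. Reads that align equally well to a pseudogene and its parent gene cannot be assigned with the sources used here.

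Small nuclear and small nucleolar RNAs, which guide splicing and the modification of other RNAs, had a lower mean in dCTT as groups, with a median of -0.40 over 37 small nuclear RNAs and -0.30 over 110 small nucleolar RNAs. Between the libraries numbered 1 the medians were -0.70 and -0.45, and between those numbered 2 -0.07 and -0.06. Most of these RNAs lack a poly(A) tail.

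Leukocyte surface genes Cd48 and Cd53, the second chosen after its values were seen, were high in the first library without a transgene. Cd53, a tetraspanin, had 1.62 and 2.14 RPKM in dCTT and 9.61 and 2.1 RPKM without a transgene. Rab3il1 had 10.8 and 11.9 RPKM in dCTT and 11.1 and 56.3 RPKM without a transgene, high in the second library alone.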
